A study of Mus musculus with 40 samples.

Results

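The de novo pathway of NAD synthesis from tryptophan was followed in liver RNA through 9 genes, Tdo2, Ido2, Afmid, Kmo, Kynu, Haao, Qprt, Acmsd, and Aadat. They were taken by name as the enzymes of the pathway and of its branches, all 9 were found once in a table of 55487 genes, and all 9 were among the 20297 genes tested after a filter on low counts. Livers came from hepatocyte-specific Nampt knockout (HNKO) mice, which carry floxed Nampt alleles (Nampt fl/fl) and 1 copy of a Cre recombinase driven by the albumin promoter (Alb-Cre+/-), and from floxed littermates without Cre, called WT. Every mouse was female, on the C57BL/6JBomTac background, and was given a purified diet (PD) from 9 weeks of age and killed 3, 6, 12, or 21 days later, so that the diet is shared by both genotypes. The labels give the days of feeding as the age. Whole liver was used, so Nampt was left intact in cells other than hepatocytes, and the RNA of all cells of the organ was read together. The labels name no animals, and each library was taken as 1 mouse, without which p-values would measure only the spread between libraries. In the 38 libraries used, WT livers numbered 5, 4, 5, and 5 and HNKO livers 5, 5, 6, and 3 at days 3, 6, 12, and 21. The 2 further HNKO libraries of day 21 that are labelled as having failed quality control were left out.

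The liver makes most of the NAD that the body draws from tryptophan. Tdo2, and to a lesser degree Ido2, opens the indole ring of tryptophan to give N-formylkynurenine, and Afmid removes the formyl group to give kynurenine. Kmo hydroxylates kynurenine on the outer mitochondrial membrane, Kynu cleaves the product to hydroxyanthranilate, and Haao opens that ring to an unstable semialdehyde. The semialdehyde either closes by itself to quinolinate, which Qprt joins to ribose phosphate to give nicotinate mononucleotide, or is decarboxylated by Acmsd and so leaves the path to NAD. Aadat takes kynurenine aside as kynurenate and also acts in lysine breakdown. Nampt, by contrast, recycles nicotinamide, and the de novo pathway does not need this enzyme, which is deleted in HNKO hepatocytes.

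Counts were scaled between libraries by TMM, a factor set by the bulk of the genes, and a gene was called lower or higher at an adjusted p under 0.05 in edgeR (Benjamini-Hochberg over all tested genes). Levels are counts relative to the scaled library total on a log2 scale (log2 CPM), and libraries are named by the numbers in their labels. Over the average of the 4 days, 6 of the 9 genes were lower in HNKO than in WT livers, and none was higher. Afmid fell by 41.2%, which is -0.77 on the log2 scale. In log2 units, Aadat fell by 0.54, Ido2 by 0.54, Haao by 0.42, Tdo2 by 0.36, and Kmo by 0.21. Kynu, Qprt, and Acmsd did not pass the test, and Qprt, the gene of the step that commits the pathway to NAD, had the narrowest interval around no change. The genes that were lower were thus those of each step from tryptophan to the semialdehyde other than Kynu, and that of the kynurenate branch. Of all tested genes, 17.3% were lower in this comparison (and 19.2% higher), so the share among the 9 is to be read against a broad background. Of 10 hepatocyte markers, 5 were lower in HNKO livers too. When libraries were scaled to the sum of these markers instead of by TMM, Tdo2, Haao, and Aadat no longer passed the test, and Kmo, Kynu, Qprt, and Acmsd were higher. On that scale, 13537 of the 20297 tested genes were higher, and the median log2 fold change of all tested genes was 0.36. Alb made up 64% of the marker sum in WT and 59.5% in HNKO livers (medians). In bulk tissue, fewer hepatocytes and less of an mRNA per hepatocyte cannot be told apart.

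The genes lie on 7 chromosomes of the GRCm38 build. By GENCODE M21, Tdo2 spans chr3:81957090-81976202, Ido2 chr8:24531892-24576333, Afmid chr11:117825924-117839908, Kmo chr1:175620381-175662116, Kynu chr2:43555329-43682715, Haao chr17:83831156-83847963, Qprt chr7:127107114-127122226, Acmsd chr1:127729413-127767978, and Aadat chr8:60505932-60545677. Ido2 and Aadat share chromosome 8, and Kmo and Acmsd share chromosome 1, at distances that make them no neighbors. Of stretches of 51 bases, the length of a read, 40.2% of those of Afmid also occur in the read-through gene Gm20708, which had a median of 4 counts. Gm20708 shares 1566 exon bases with Afmid on the same strand, and reads from these may have been counted for neither gene. Afmid also shares 83 exon bases with Tk1 on the opposite strand. For the other members the shared percentage was at most 2.99 (Qprt). Whether the counting used the strand is not stated, so reads of Afmid and Tk1 from the 83 shared bases may not have been told apart.

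RefSeq (GRCm38.p6) gives a promoter window, 250 bases before to 50 bases after the gene start it records, for 7 of the 9 genes. For 5 of these, the RefSeq start lay inside the GENCODE gene by 192 bases for Aadat, 197 for Qprt, 474 for Tdo2, 1173 for Haao, and 11812 for Kmo. The stretches of the 250 bases before the RefSeq start that overlap no GENCODE exon are shown for 3 genes that were lower in HNKO livers (Afmid, Kmo, and Aadat) and 1 that did not pass the test (Qprt). That of Kmo lies inside the gene as GENCODE draws it, right before the start of another GENCODE transcript of Kmo, and not before the gene's first exon. They are given from 5′ to 3′ on the strand of the gene, at chr11:117825669-117825713 (Afmid, plus strand), chr1:175631943-175631995 (Kmo, plus strand), chr8:60505874-60505931 (Aadat, plus strand), and chr7:127122227-127122279 (Qprt, minus strand). Capitals would mark a match to 1 of the 6 motifs searched, and none falls in these stretches.
Afmid: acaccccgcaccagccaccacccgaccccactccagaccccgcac
Kmo: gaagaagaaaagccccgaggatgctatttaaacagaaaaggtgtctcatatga
Aadat: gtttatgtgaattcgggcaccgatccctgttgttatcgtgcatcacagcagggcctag
Qprt: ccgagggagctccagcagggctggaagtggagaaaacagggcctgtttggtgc

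The motifs were searched on both strands of the whole 250 upstream bases, and no match overlapped a match to another motif. GGGCGG (GC box) was found in Afmid and Aadat, and it is in 32.7% of 32851 promoter windows of the same length. The match of Aadat, 115 to 110 bases before the RefSeq start, lies inside the GENCODE gene. The letters TATAAA (12.4% of windows) were found in Tdo2, 229 to 224 bases before the RefSeq start, which is far from where a TATA box acts and inside the GENCODE gene. The letters CCAAT (33.8%) were also in Tdo2, 78 to 74 bases before the RefSeq start and likewise inside the GENCODE gene. A partial HNF1 site, spelled GTTAAT (6.43%), was found in Haao, 41 to 36 bases before the RefSeq start and inside the GENCODE gene. An E-box, CACGTG (6.02%), was in none of the 7. Nor was a forkhead site, TGTTTAC (3.17%).

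Nampt itself fell by 0.83 on the log2 scale over the 4 days (SE 0.12, adjusted p = 2.61e-06), with values of 4.92 to 6.36 log2 CPM in HNKO and 5.84 to 7.28 in WT libraries. It passed at days 3, 6, and 12, at -0.93, -0.90, and -0.82, and did not at day 21, at -0.69. At day 6, the genotypes overlapped, with 5.48 to 6.36 in HNKO and 5.99 to 7.28 in WT livers. The counts cover all exons of the gene and all cells of the liver. Total counts ranged from 16151037 to 64181492 per library. The 10 hepatocyte markers had counts in every library, and their summed level was 16.81 to 17.40 log2 CPM in WT and 16.24 to 17.23 in HNKO livers. The 6 ductal markers summed to 5.10 to 5.61 log2 CPM in WT and 6.74 to 9.56 in HNKO livers, without overlap. Spp1 alone made up 84.9% of this sum in WT and 92.4% in HNKO livers (medians), and Krt7, Krt19, Epcam, and Sox9 overlapped between the genotypes. Of these 6, Cftr was at 0 in 1 WT library and the others were above 0 in all.

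Afmid showed the largest decrease. At day 3, Afmid was 5.39, 5.90, 5.98, 5.99, and 6.14 log2 CPM in the 5 WT libraries and 4.14, 4.48, 4.65, 5.50, and 5.63 in the 5 HNKO libraries. At day 6, Afmid was 5.42, 5.47, 5.88, and 5.98 log2 CPM in the 4 WT libraries and 4.12, 4.67, 4.83, 4.90, and 5.09 in the 5 HNKO libraries. Every HNKO library was below every WT library at day 6, whereas at day 3 HNKO libraries 4 and 22 lay within the WT range. In edgeR's quasi-likelihood fit, both days passed, with a log2 difference of -0.90 (SE 0.25, adjusted p = 0.0306) and of -0.95 (SE 0.26, adjusted p = 0.0134) respectively. By exact two-sided permutation, p came to 0.0238 and 0.00794, the latter being the smallest that 4 against 5 libraries allow. At day 12, Afmid was 4.61, 5.03, 5.13, 5.74, and 5.86 log2 CPM in the 5 WT libraries and from 4.46 to 5.38 (median 4.60) in the 6 HNKO libraries. At day 21, Afmid was 4.92, 5.16, 5.20, 5.26, and 5.47 log2 CPM in the 5 WT libraries and 4.11, 4.54, and 5.04 in the 3 HNKO libraries. Here HNKO libraries 11, 32, and 35 at day 12 and 40 at day 21 lay within the WT range. The log2 fold changes of -0.61 (SE 0.24) and -0.60 (SE 0.29) did not pass the test (adjusted p = 0.0978 and 0.271). The average over the days was -0.77 (SE 0.13, adjusted p = 2.12e-05), and the gene stayed below the threshold in each fit that left out 1 library, with values from -0.82 to -0.70. The call at day 3 was lost in 5 of 10 such fits, those without HNKO libraries 2, 3, and 23 and WT libraries 5 and 25, with adjusted p from 0.059 to 0.112. The call at day 6 was lost in 2 of 9, those without HNKO library 29 or WT library 10. In a fit of day 3 alone, adjusted p was 0.0845.

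The first step of the pathway has a pair of genes. Tdo2, the main dioxygenase of liver, was the most abundant member, and Ido2, an enzyme of low activity on tryptophan, was among the least abundant. At day 3, Ido2 was 5.16, 5.19, 5.23, 5.47, and 5.50 log2 CPM in the 5 WT libraries and 4.27, 4.29, 4.71, 5.34, and 5.34 in the 5 HNKO libraries. At day 6, Ido2 was 5.30, 5.34, 5.39, and 5.47 log2 CPM in the 4 WT libraries and 3.74, 4.49, 4.77, 5.03, and 5.19 in the 5 HNKO libraries. At day 12, Ido2 was 5.59, 5.61, 5.65, 5.66, and 5.90 log2 CPM in the 5 WT libraries and from 4.81 to 5.61 (median 5.08) in the 6 HNKO libraries. HNKO and WT libraries did not overlap at day 6, and at day 12 1 of 6 HNKO libraries (35) reached into the WT range. At day 21, Ido2 was 5.61, 5.63, 5.73, 5.76, and 5.95 log2 CPM in WT and 4.78, 5.06, and 5.55 in HNKO livers, again without overlap. The log2 fold change passed the test at day 6, at -0.65 (SE 0.21, adjusted p = 0.0383), and was -0.45 (SE 0.20), -0.48 (SE 0.19), and -0.58 (SE 0.24) at days 3, 12, and 21 (adjusted p = 0.19, 0.111, and 0.176). The call at day 6 was lost in 7 of the 9 fits that left out 1 library of the day, with adjusted p from 0.0572 to 0.176. It was also lost with no filter on low counts (adjusted p = 0.0637), with all 40 libraries (0.073), and in a fit of the day alone (0.114). The average was -0.54 (SE 0.11, adjusted p = 0.000131). Exact permutation p-values (two-sided) were 0.103, 0.0238, 0.0173, and 0.0179 from day 3 to day 21.

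For Tdo2, the HNKO livers of days 3 and 6 varied more than the WT livers. At day 3, Tdo2 was 9.83, 9.95, 10.05, 10.28, and 10.40 log2 CPM in the 5 WT libraries and 8.75, 8.85, 9.73, 10.08, and 10.14 in the 5 HNKO libraries. At day 6, Tdo2 was 9.68, 10.05, 10.32, and 10.34 log2 CPM in the 4 WT libraries and 8.05, 9.49, 9.82, 9.85, and 10.02 in the 5 HNKO libraries. HNKO libraries 2 and 23 at day 3 and 29 at day 6 were far below WT, and the remaining HNKO livers lay in or near the WT range. At day 12, the values ran from 9.07 to 10.19 in WT and from 9.11 to 10.03 in HNKO livers, and at day 21 from 9.49 to 9.98 and from 8.69 to 9.71. No single day passed the test, with log2 fold changes of -0.49 (SE 0.28), -0.53 (SE 0.29), -0.17 (SE 0.26), and -0.24 (SE 0.32). The average of -0.36 (SE 0.14, adjusted p = 0.0495) was just past the threshold, and it was lost in 26 of the 38 fits that left out 1 library, with adjusted p from 0.0503 to 0.158. The call was also lost with no filter on low counts (adjusted p = 0.0773), with at least 10 counts required throughout (0.0593), with robust estimation (0.0506), and with the library number series as a covariate (0.0543). The pooled SD within groups was 0.61 in HNKO against 0.32 in WT livers, whereas at day 12 it was 0.32 against 0.45.

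Kmo and Haao, the oxygenases of the middle of the pathway, were lower over the days. For Kmo, WT and HNKO libraries overlapped at each day. It was 8.17 to 8.55 log2 CPM in WT and 7.67 to 8.31 in HNKO livers at day 3, and 8.19 to 8.39 and 7.35 to 8.22 at day 6. Its log2 fold changes were -0.32 (SE 0.13), -0.33 (SE 0.13), -0.20 (SE 0.12), and -0.00 (SE 0.14) in the order of days, none past the test with all libraries and no covariate. With the clock score as a covariate, day 6 passed, at -0.34 (adjusted p = 0.0481). The average over the days was -0.21 (SE 0.07, adjusted p = 0.0105). This average was positive under hepatocyte marker scaling, and without HNKO library 37 it was -0.16 (adjusted p = 0.0614). At day 6, Haao was 9.07, 9.08, 9.15, and 9.33 log2 CPM in the 4 WT libraries and 7.89, 8.41, 8.62, 8.88, and 9.08 in the 5 HNKO libraries. At day 12, Haao was 8.92, 8.98, 9.04, 9.12, and 9.28 log2 CPM in the 5 WT libraries and from 8.44 to 8.78 (median 8.68) in the 6 HNKO libraries. Every HNKO library was below every WT library at day 12, and HNKO library 6 alone lay in the WT range at day 6. At day 3, Haao ranged from 8.85 to 9.33 in WT and from 8.07 to 9.35 in HNKO livers, and at day 21 from 8.36 to 8.85 and from 7.83 to 8.40. The fold changes of Haao at single days, -0.28 (SE 0.17), -0.53 (SE 0.18), -0.42 (SE 0.17), and -0.44 (SE 0.20), did not pass in the edgeR fit of all groups without a covariate (adjusted p = 0.382, 0.0534, 0.111, and 0.243). DESeq2 called day 6, as did edgeR with the library number series (adjusted p = 0.0417) or the clock score (0.033) as a covariate. A fit of day 12 alone called that day, at -0.41 (adjusted p = 0.0329). The average over the days of -0.42 (SE 0.09, adjusted p = 0.000525) passed. The exact permutation test (two-sided) gave p = 0.190, 0.0556, 0.00216, and 0.0536 from day 3 to day 21, and that of day 12 is the smallest that 5 against 6 libraries allow.

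Kynu, which follows Kmo, did not differ by a detectable amount. It was 7.31 ± 0.27 (SD, n = 19) log2 CPM in WT livers and 7.27 ± 0.35 (SD, n = 19) in HNKO livers, with an average log2 fold change of -0.04 (SE 0.10, adjusted p = 0.813) and an interval of 2 SE from -0.23 to 0.16. Its fold changes at single days ran from -0.16 at day 6 to 0.07 at day 21. Qprt was 6.94 ± 0.17 (SD, n = 19) log2 CPM in WT livers and 6.91 ± 0.17 (SD, n = 19) in HNKO livers, and its average log2 fold change was -0.04 (SE 0.05, adjusted p = 0.544), with 2 SE reaching from -0.15 to 0.06. A decrease of Qprt of the size seen for Haao or Tdo2 therefore lies outside 2 SE under TMM. At day 6, Qprt ran from 6.87 to 7.05 log2 CPM in the 4 WT libraries and was 6.62, 6.81, 6.89, 7.03, and 7.13 in the 5 HNKO libraries. The lowest was again HNKO library 29, and the other HNKO livers spread to both sides of WT.

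Acmsd, the branch away from NAD, was in WT livers the least abundant member and the most variable. It ranged from 3.23 to 5.38 log2 CPM in WT and from 3.90 to 5.69 in HNKO livers, with a pooled SD within groups of 0.56 and 0.56, so its interval was wide. The average log2 fold change was 0.05 (SE 0.18, adjusted p = 0.86), with 2 SE from -0.30 to 0.40. At day 21, it was 3.23, 3.66, 3.68, 4.57, and 5.06 log2 CPM in WT and 3.90, 3.97, and 4.59 in HNKO livers, with all HNKO values inside the WT range. Aadat, the branch to kynurenate, was lower. At day 6, Aadat was 6.17, 6.20, 6.49, and 6.95 log2 CPM in the 4 WT libraries and 4.80, 5.50, 5.96, 5.97, and 6.12 in the 5 HNKO libraries. At day 21, Aadat was 5.76, 5.91, 5.91, 5.96, and 6.11 log2 CPM in the 5 WT libraries and 5.06, 5.55, and 5.69 in the 3 HNKO libraries. Neither day had an overlap between the genotypes. At day 3, Aadat was 6.03, 6.18, 6.29, 6.33, and 6.98 log2 CPM in the 5 WT libraries and 5.11, 5.67, 5.93, 6.01, and 6.34 in the 5 HNKO libraries. At day 12, Aadat was 5.50, 5.94, 6.20, 6.32, and 6.57 log2 CPM in the 5 WT libraries and from 5.44 to 5.92 (median 5.74) in the 6 HNKO libraries. At these days the ranges overlapped. The log2 fold change passed at day 6, at -0.74 (SE 0.23, adjusted p = 0.0277), and was -0.53 (SE 0.22), -0.42 (SE 0.21), and -0.48 (SE 0.25) at days 3, 12, and 21 (adjusted p = 0.146, 0.201, and 0.326). The call at day 6 was lost in 4 of 9 fits, those without HNKO library 29 or 30 or WT library 8 or 10, with adjusted p from 0.059 to 0.154, and in a fit of the day alone (adjusted p = 0.1). The average was -0.54 (SE 0.11, adjusted p = 0.00029).

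**Figure D1:**
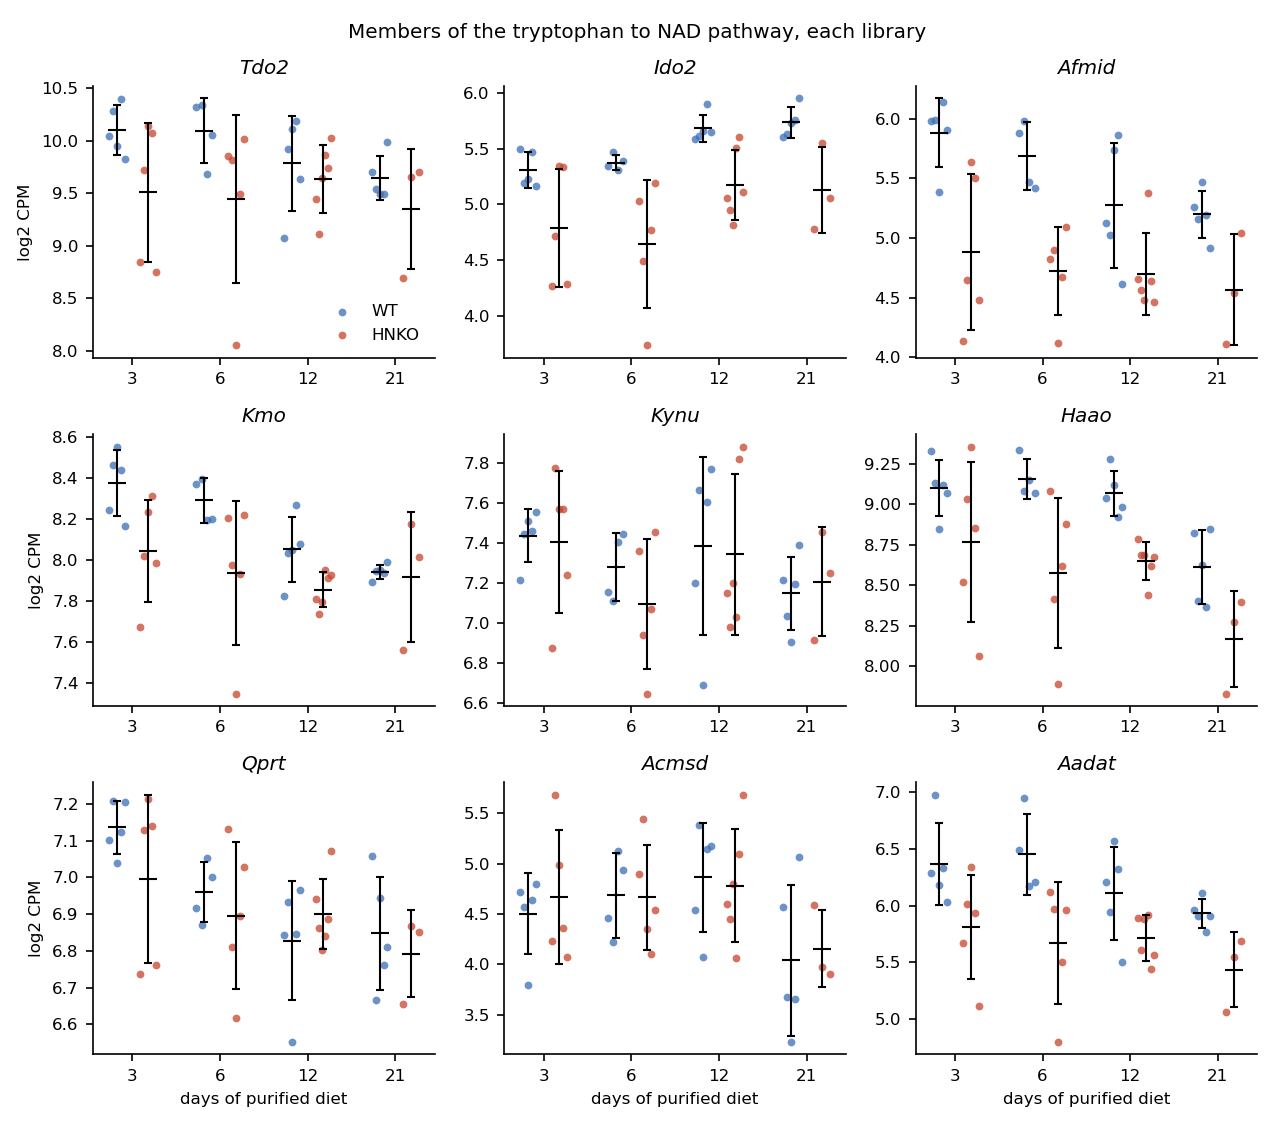
Log2 CPM of each member (y axis) by days of purified diet (x axis) in WT (blue) and HNKO (red) livers, 1 point per library, with the mean and SD of each group in black. Afmid, Ido2, and Aadat of HNKO livers lie below every WT liver at day 6, whereas Kynu, Qprt, and Acmsd overlap at each day.

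At single days, 1 of the 9 genes was lower at day 3 (Afmid), against 1.71% of all tested genes, and 3 at day 6 (Afmid, Ido2, and Aadat), against 4.37%. None passed in edgeR at day 12, where 3.27% of tested genes were lower, or at day 21, where 0.916% were. The unadjusted p was under 0.05, in either direction, for 4 of 9 and 3 of 9 members at these days, and for 24.5% and 18% of all tested genes. DESeq2 called 0 members at both. Members with every HNKO library below every WT library numbered 0, 3, 1, and 2 at days 3, 6, 12, and 21, where 1.8%, 4.68%, 2.14%, and 6.7% of all tested genes had such a gap. The 3 HNKO libraries of day 21 make a gap easier to reach there. The median log2 fold change of the 9 was -0.32, -0.53, -0.20, and -0.24 in the order of days and -0.36 over the days, beside 0.01, -0.01, 0.00, -0.01, and -0.01 for all tested genes.

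The genotype difference was not shown to change with the days for any member. In the test of genotype by day, 0 of 9 members and 0% of all genes passed in edgeR, and the unadjusted p was under 0.05 for 0 of 9 members and for 966 of the 20297 genes. DESeq2 was not run for this test. Nor did the test across days within a genotype call a member. Of all genes, 5.84% passed in WT and 7.9% in HNKO livers. The unadjusted p was under 0.05 in WT for 4 of 9 members (Afmid, Kmo, Haao, and Qprt) and 21.2% of all genes, and in HNKO livers for 1 of 9 (Haao) and 22.9%. The mean of Haao in WT was 9.10 ± 0.17 (SD, n = 5) log2 CPM at day 3 and 8.61 ± 0.23 (SD, n = 5) at day 21, and in HNKO it was 8.77 ± 0.49 (SD, n = 5) and 8.17 ± 0.30 (SD, n = 3).

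**Figure D2:**
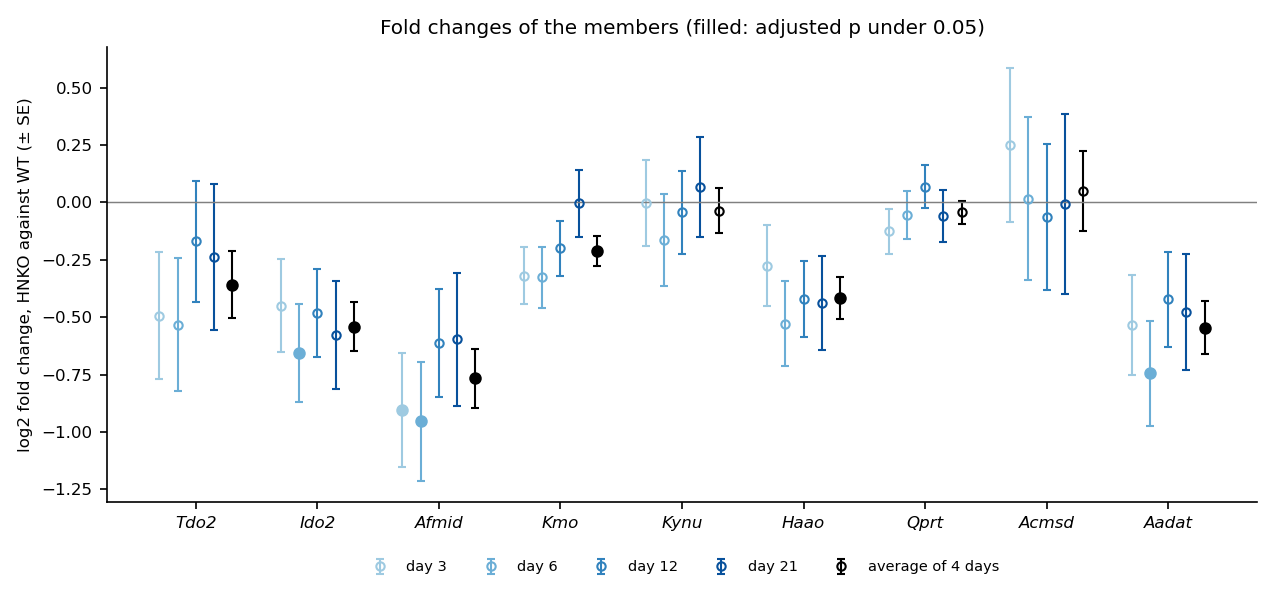
Log2 fold change of HNKO against WT (y axis, points with SE) for each member (x axis) at days 3, 6, 12, and 21 and for the average of the days (black). Filled points passed an adjusted p of 0.05 in edgeR. The averages of Tdo2, Ido2, Afmid, Kmo, Haao, and Aadat are filled and lie from -0.77 (Afmid) to -0.21 (Kmo, whose sign turns when libraries are scaled to hepatocyte markers).

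The levels of the members per exon length differed widely. On the log2 FPKM scale, over all 19 WT livers, Tdo2 stood at 7.94 ± 0.35 (SD), followed by Haao at 6.75 ± 0.27, Kmo at 5.92 ± 0.21, Qprt at 5.54 ± 0.17, Aadat at 5.08 ± 0.37, Kynu at 4.69 ± 0.27, Afmid at 3.67 ± 0.44, Ido2 at 3.67 ± 0.23, and Acmsd at 3.01 ± 0.60. Tdo2 was above Haao and Haao above Kmo in 19 of 19 WT livers, and Kmo above Qprt in 18. Aadat and Kynu were closer than their spread, since Aadat led by 0.38 ± 0.52 (SD) within a liver, and Afmid and Ido2 could not be ordered at all. With the longest transcript as the length, Kynu stood above Aadat and Afmid above Ido2. In the 19 HNKO livers the order began alike, with Tdo2 at 7.55 ± 0.56, Haao at 6.36 ± 0.39, Kmo at 5.69 ± 0.25, and Qprt at 5.50 ± 0.17. Kynu (4.65 ± 0.35) and Aadat (4.56 ± 0.39) were again closer than their spread, although with the longest transcript as the length Kynu led by 1.09 ± 0.41 (SD) and in 19 of 19 HNKO livers. Acmsd (3.12 ± 0.56), Ido2 (3.06 ± 0.49), and Afmid (2.90 ± 0.44) came last within their spread of each other. With the longest transcript as the length, the means in HNKO livers were 3.51 for Afmid, 3.24 for Ido2, and 3.18 for Acmsd. The merged exons of Afmid include the bases shared with Gm20708, so its level per exon length may be too low.

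**Figure D3:**
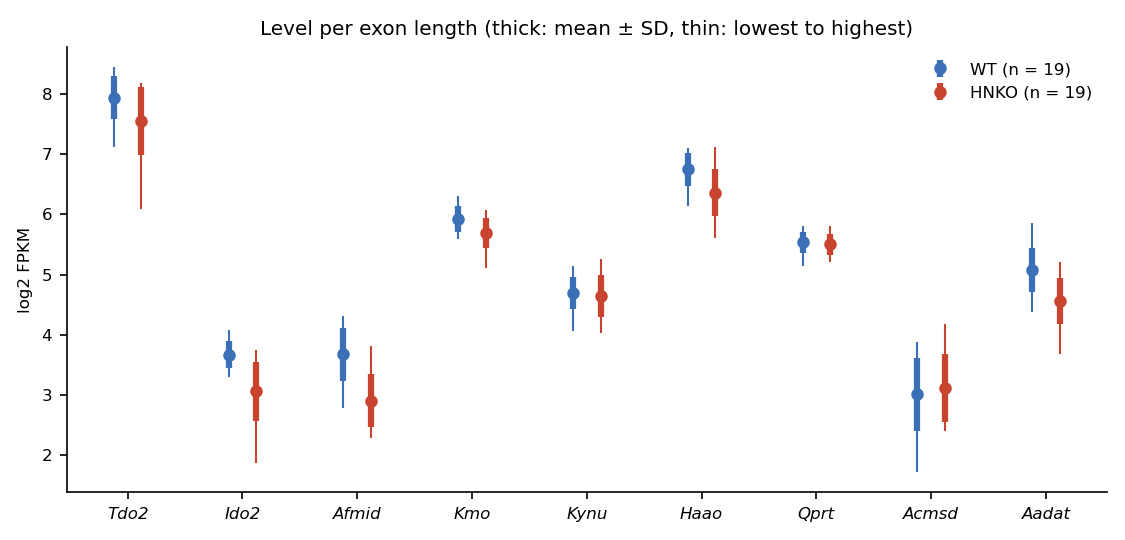
Level per exon length (y axis, log2 FPKM) of each member in the order of the pathway (x axis) over 19 WT (blue) and 19 HNKO (red) livers. Points and thick bars are the mean and SD, and thin lines run from the lowest to the highest library. Tdo2 has the highest mean in both genotypes (7.94 and 7.55).

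At the branch points, the log2 ratio of the levels of 2 members per exon length (FPKM) within a library was set side by side, as a description without a test. This ratio of Kmo to Aadat, the enzymes that compete for kynurenine, was 0.84 ± 0.29 (SD, n = 19) in WT livers and 1.13 ± 0.28 (SD, n = 19) in HNKO livers. At day 21, it was 0.73 to 1.06 in WT and 1.21 to 1.51 in HNKO livers, whereas at the other days the ranges overlapped. The ratio of Qprt to Acmsd, the routes toward and away from NAD, was 2.53 ± 0.57 (SD, n = 19) in WT livers and 2.39 ± 0.51 (SD, n = 19) in HNKO livers, a difference well within the spread. Across the length of the pathway, Qprt stood above Afmid by 1.86 ± 0.41 (SD, n = 19) in WT livers and by 2.60 ± 0.35 (SD, n = 19) in HNKO livers. The size of this ratio carries the limit of the exon length of Afmid in both genotypes.

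Between livers of 1 group, most members moved together. Deviations from the group means over the 38 libraries were positively correlated in 33 of 36 pairs of members, with Pearson r from -0.167 to 0.865, and 26 pairs passed the permutation test after adjustment over the 36 (19 by rho as well). Of all pairs of tested genes, 50% had a positive r, and 5.79% had an r at or above that of the weakest of the 26 (0.414). The closest pair was Tdo2 and Kmo, with r = 0.865 and rho = 0.823 (adjusted permutation p = 0.00027 and 0.00018, r = 0.84 without the 2 farthest libraries). The farthest libraries are the 2 with the largest distance from the median of the first measure named. The smallest unadjusted p that 100000 permutations can give is 1e-05. Tdo2 and Ido2 had r = 0.795 and rho = 0.69 (adjusted permutation p = 0.000288 and 0.00072, r = 0.687 without the 2 farthest libraries), and Afmid and Aadat had r = 0.711 and rho = 0.745 (adjusted permutation p = 0.00027 and 0.00018, r = 0.691 without the 2 farthest libraries). Kynu, Qprt, and Acmsd were related among themselves, but Kynu and Qprt were also related to members that were lower. Haao and Qprt had r = 0.73 and rho = 0.623 (adjusted permutation p = 0.000771 and 0.00356, r = 0.643 without the 2 farthest libraries). Kmo and Kynu had r = 0.543 and rho = 0.482 (adjusted permutation p = 0.0036 and 0.0138, r = 0.414 without the 2 farthest libraries). Kynu and Qprt had r = 0.731 and rho = 0.689 (adjusted permutation p = 0.00027 and 0.00045, r = 0.646 without the 2 farthest libraries), and Kynu and Acmsd r = 0.604 and rho = 0.617 (adjusted permutation p = 0.00139 and 0.00099, r = 0.55 without the 2 farthest libraries). In contrast, Kynu and Afmid had r = 0.0154 and rho = -0.0509 (adjusted permutation p = 0.972 and 0.835, r = 0.0469 without the 2 farthest libraries). All members share the library and its scaling.

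**Figure D4:**
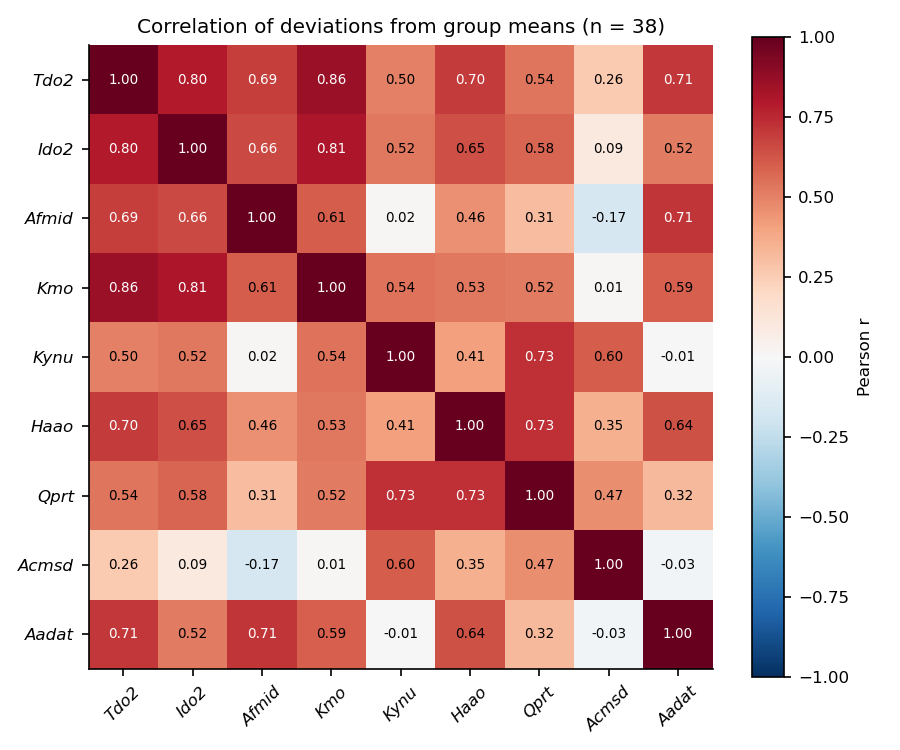
Pearson r between members (both axes) of the deviations of log2 CPM from the group means over 38 libraries, from -1 (blue) to 1 (red). The highest value is that of Tdo2 with Kmo (0.865), and Acmsd is correlated mainly with Kynu (0.60) and Qprt (0.47).

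The same deviations were compared with 2 scores of the libraries, in 18 relations. The summed level of the ductal markers was negatively related to all 9 members, and 8 passed by r (7 by rho as well). Of all tested genes, 47.9% had a negative r, and 9.81% had an r at or below that of Kynu, the weakest of the 8 (-0.408). For Ido2 it had r = -0.818 and rho = -0.585 (adjusted permutation p = 0.000972 and 0.00738, r = -0.729 without the 2 farthest libraries), for Kmo r = -0.802 and rho = -0.68 (adjusted permutation p = 0.00054 and 0.00168, r = -0.712 without the 2 farthest libraries), and for Tdo2 r = -0.771 and rho = -0.615 (adjusted permutation p = 0.00072 and 0.00472, r = -0.674 without the 2 farthest libraries), whereas Acmsd had r = -0.0758 and rho = -0.096 (adjusted permutation p = 0.697 and 0.632, r = -0.0779 without the 2 farthest libraries). A clock score, the mean of Arntl, Npas2, and Clock less the mean of 7 genes of the opposite phase, was related to 5 members by both measures. Of all tested genes, 29.6% had an r at least as far from 0 as that of Acmsd, the weakest of the 5. It was most closely related to Aadat, with r = -0.746 and rho = -0.798 (adjusted permutation p = 9e-05 and 9e-05, r = -0.687 without the 2 farthest libraries), and to Afmid, with r = -0.616 and rho = -0.709 (adjusted permutation p = 9e-05 and 9e-05, r = -0.56 without the 2 farthest libraries). Acmsd had the opposite sign, with r = 0.408 and rho = 0.431 (adjusted permutation p = 0.0156 and 0.0148, r = 0.425 without the 2 farthest libraries). The scores ranged from -5.31 to 1.44 in WT and from -4.27 to 1.64 in HNKO livers. With the clock score as a covariate, Afmid and Aadat also passed at day 12, at -0.85 (adjusted p = 0.00321) and -0.67 (adjusted p = 0.00216), as did Ido2 at -0.57 (adjusted p = 0.0379) and Haao at -0.50 (adjusted p = 0.036). With this covariate, 19.1% of all tested genes passed at day 12 in either direction, against 7.82% without it. The part of either score in the genotype difference was not tested.

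Some HNKO livers weighed on the comparisons. HNKO library 29 of day 6 was the lowest of its group for 8 of 9 members and the lowest of all 38 libraries for 5, and HNKO library 37 of day 21 was the lowest of its group for 8 of 9. HNKO libraries 23 and 2 of day 3 were below their group mean for 9 of 9. The mean deviation over the members was -0.68 for library 29, -0.46 for 23, -0.43 for 2, and -0.28 for 37. Library 29 also had the lowest hepatocyte sum of the 38 (16.24 log2 CPM) and the highest ductal (9.56), stellate (10.27), and macrophage (9.85) sums. Library 37 had the second highest ductal sum (8.91) and the third lowest hepatocyte sum (16.60), and library 23 had a hepatocyte sum of 16.47. The part of these sums in the result was not tested. With libraries 29 and 37 left out, a choice made after seeing the data, the average passed for 4 members, all lower, where 10.7% of the 20659 genes then tested were lower. It was -0.67 (adjusted p = 0.000277) for Afmid, -0.44 (adjusted p = 0.000665) for Ido2, -0.45 (adjusted p = 0.00232) for Aadat, and -0.33 (adjusted p = 0.0044) for Haao. Tdo2 at -0.22 (adjusted p = 0.19) and Kmo at -0.13 (adjusted p = 0.0731) no longer passed. At day 6, no member passed without library 29, when Afmid was at -0.81 (adjusted p = 0.0717), Ido2 at -0.46 (adjusted p = 0.176), and Aadat at -0.56 (adjusted p = 0.144). Without WT library 10 of day 6, no member passed either, with Afmid at -0.85 (adjusted p = 0.0539), Ido2 at -0.62 (adjusted p = 0.0923), and Aadat at -0.55 (adjusted p = 0.154). Leaving out HNKO library 6 or 31 instead called Haao at day 6, at -0.67 (adjusted p = 0.0143) and -0.60 (adjusted p = 0.035), and leaving out library 31 also called Kmo at day 6, at -0.40 (adjusted p = 0.0481). The labels number the libraries and name no batch. Here the numbers were split into 2 series, 1 to 21 and 22 to 41. In the 7 comparisons of HNKO and WT within a series and day, Tdo2, Ido2, Afmid, Kmo, Haao, and Aadat were lower in 7 of 7, and Kynu, Acmsd, and Qprt in 5, 5, and 3 of 7. These comparisons use the same libraries again, in places only 2 against 2. The share of all tested genes lower in 7 of 7 was not computed. Day 21 of the first series held no HNKO library used here.

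The calls of several members depended on the scaling. The 5 hepatocyte markers that were lower over the days included Alb (albumin) at -0.46 (SE 0.09, adjusted p = 0.000157), Ttr (transthyretin) at -0.40 (SE 0.09, adjusted p = 0.000678), and Apoh at -0.40 (SE 0.08, adjusted p = 0.000136), and none of the 10 was higher. Scaling to the sum of these markers moved the median log2 fold change of all tested genes from -0.01 to 0.36, and the share of calls that were higher from 52.6% to 97.6%. The sum rests mainly on Alb, which fell by more than the median marker (-0.23). On this scale, Afmid was at -0.43 (adjusted p = 0.0025) and Ido2 at -0.21 (adjusted p = 0.0283), which still passed, and Aadat was at -0.20 (adjusted p = 0.0559), Haao at -0.08 (adjusted p = 0.347), and Tdo2 at -0.03 (adjusted p = 0.842), which did not. Kmo at 0.14 (adjusted p = 0.0464), Qprt at 0.31 (adjusted p = 0.000232), Kynu at 0.31 (adjusted p = 0.00456), and Acmsd at 0.41 (adjusted p = 0.0267) were higher. At day 6, none of the 3 lower calls remained, with Afmid at -0.44 (adjusted p = 0.121), Ido2 at -0.18 (adjusted p = 0.387), and Aadat at -0.26 (adjusted p = 0.249), and Qprt was higher, at 0.46 (adjusted p = 0.00911). At day 3, Afmid was at -0.57 (adjusted p = 0.0561). Relative to the moved median, Afmid was at -0.79, Ido2 at -0.57, Aadat at -0.57, Haao at -0.44, Tdo2 at -0.39, and Kmo at -0.22. The scaling shifts all genes of a library alike, and taking off the median removes it again. That these values are close to those under TMM was therefore set in advance and tests nothing. With the ductal score as a covariate, the average of all 9 members turned positive or stayed so, from 0.23 (Acmsd) to 1.27 (Tdo2). None of the lower calls remained, and Tdo2 (adjusted p = 0.0223) and Kmo (0.0337) were higher. The ductal score did not overlap between the genotypes, so this fit compares them where neither has libraries.

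**Figure D5:**
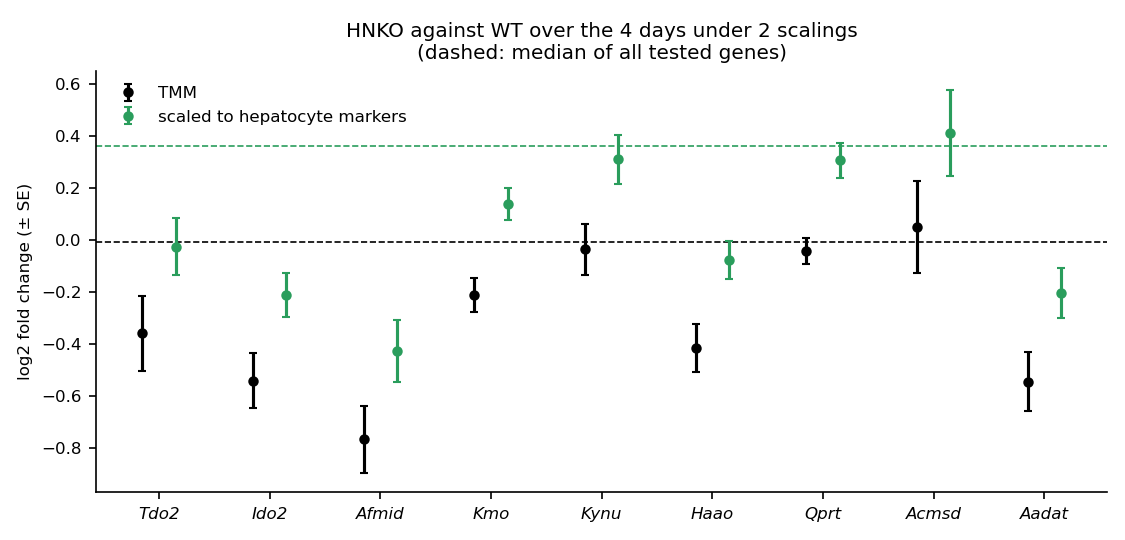
Log2 fold change of HNKO against WT averaged over the 4 days (y axis, points with SE) for each member (x axis) with TMM scaling (black) and with libraries scaled to 10 hepatocyte markers (green). Dashed lines are the medians of all tested genes. The members shift upward together, and Afmid is lowest under both (-0.77 and -0.43).

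Of 18 other genes of tryptophan handling and NAD synthesis, 16 were tested. Ido1, a dioxygenase of immune cells, and Tph1, which leads to serotonin, had 18 and 10 counts over all 38 libraries and were removed by the filter. Over the days, 8 of the 16 were lower and 2 higher, where 17.3% and 19.2% of all tested genes were. The fold changes of the 16 are given under TMM only. How they depend on hepatocyte marker scaling or on 1 library is not given here, so they are not firmer than those of the members. At day 6, 5 were lower and 2 higher, where 4.37% and 8.42% of all tested genes were, and at days 3, 12, and 21 the numbers were 1, 1, and 0, all lower. The shares of all tested genes lower at these days were 1.71%, 3.27%, and 0.916%. At day 21, the unadjusted p was under 0.05 for 5 of the 16 and 18% of all tested genes, and DESeq2 called 0 of the 16. Among the further kynurenine aminotransferases, 2 of 3 were lower over the days. Kyat3 was lower, at -0.64 (SE 0.21, adjusted p = 0.038) at day 6, -0.84 (SE 0.19, adjusted p = 0.0071) at day 12, and -0.70 (SE 0.10, adjusted p = 3.33e-06) over the days. Got2, the mitochondrial aspartate aminotransferase, was at -0.29 (SE 0.05, adjusted p = 7.13e-05) over the days. Kyat1 was at -0.22 (SE 0.12, adjusted p = 0.141) and did not pass. Beyond Qprt, Nmnat1 and Nmnat3, the nuclear and the mitochondrial adenylyltransferase that form the dinucleotide, were lower over the days, at -0.28 (SE 0.05, adjusted p = 2.17e-05) and -0.25 (SE 0.06, adjusted p = 0.00196). Nmnat2 was at -0.18 (SE 0.19, adjusted p = 0.487). Nadsyn1, which amidates the last intermediate to NAD, was at -0.05 (SE 0.04, adjusted p = 0.32), and Naprt, which makes the product of Qprt from nicotinic acid, at -0.15 (SE 0.06, adjusted p = 0.0441). Downstream of Acmsd and in the breakdown of lysine and tryptophan, Aldh8a1 at -0.33 (SE 0.08, adjusted p = 0.00109), Dhtkd1 at -0.46 (SE 0.12, adjusted p = 0.00187), and Gcdh at -0.45 (SE 0.09, adjusted p = 0.000108) were lower. Got2, Nmnat1, Nmnat3, and Gcdh were lower at day 6 as well, and Dhtkd1 at day 3.

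Of the 5 listed genes of amino acid transport and of tryptophan tRNA charging, 2 were higher over the days, against 19.2% of all tested genes, and 2 at day 6, against 8.42%. Slc7a8, a light chain of the transporters of large neutral amino acids, was higher over the days, at 0.43 (SE 0.10, adjusted p = 0.000647), and at day 6, at 0.71 (SE 0.20, adjusted p = 0.016). Slc7a5, another light chain, was higher at day 6, at 0.64 (SE 0.16, adjusted p = 0.0064), and its average of 0.16 (SE 0.08, adjusted p = 0.107) did not pass. Wars, the tryptophan tRNA synthetase, was higher over the days, at 0.19 (SE 0.05, adjusted p = 0.00225). Slc3a2, the shared heavy chain, at 0.03 (SE 0.06, adjusted p = 0.712) and Slc16a10, a transporter of aromatic amino acids, at -0.24 (SE 0.10, adjusted p = 0.0711) did not pass. The sums of stellate cell and fibroblast markers (8.10 to 8.71 log2 CPM in WT and 8.02 to 10.27 in HNKO livers) and of macrophage markers (7.98 to 9.31 and 8.36 to 9.85) overlapped in part between the genotypes, with 5 of 6 and 4 of 6 of these markers higher over the days (against the same 19.2%), and their part in these differences was not tested.

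For each member, the 3 tested genes outside the pathway whose deviations were most alike are given with Pearson r over the 38 libraries, as a description. They were Pde3b (0.92), Sdhb (0.91), and Serpina1b (0.91) for Tdo2, Slc27a5 (0.89), Cyp2b9 (0.88), and Serpina1b (0.86) for Ido2, and Clcn2 (0.91), Hsd3b2 (0.90), and Ttc38 (0.90) for Afmid. For Kmo they were Aldh6a1 (0.91), Hibch (0.90), and Akr1c14 (0.89), for Kynu Pcca (0.85), Mtch2 (0.85), and Dop1a (0.85), and for Haao Pm20d1 (0.96), Ebp (0.90), and Mid1ip1 (0.89). Those of Qprt were Nipsnap1 (0.85), Slco2b1 (0.85), and Apof (0.82), those of Acmsd Eef1akmt1 (0.76), 2810425M01Rik (0.71), and Gstm7 (0.71), and those of Aadat Pipox (0.94), Gstz1 (0.93), and Msrb1 (0.93). The highest single value was that of Haao with Pm20d1, and Acmsd had the lowest best match. Serpina1b was in the list of both Tdo2 and Ido2.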

How the data were processed

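Livers of WT and HNKO mice were sequenced as rRNA-depleted total RNA (51-bp paired-end reads). The authors aligned reads to GRCm38 with STAR 2.7.2b, counted fragments with both ends aligned on GENCODE genes with featureCounts 1.6.4 (versions from the submitters' processing notes), and deposited raw counts per gene without normalization. The strand setting of the counting is not given in the sources used here. Groups follow the sample labels. HNKO libraries 17 and 18 failed the authors' quality control and enter only an alternative. Total counts were 16151037 to 64181492, and members had 232 (Acmsd) to 47525 (Tdo2) counts per library, with Acmsd the least deeply counted. Genes were kept by filterByExpr (minimum count 10, minimum total 15, minimum proportion 0.7), which left 20297 of 55487, normalized with TMM factors, and tested in a model of the 8 groups with edgeR 4.0.16 (quasi-likelihood, legacy computation, R 4.3.3). P-values were adjusted by Benjamini-Hochberg over all tested genes, with a threshold of 0.05. Standard errors are those implied by the test. Log2 CPM used a prior count of 2, and FPKM was log2 of TMM-scaled CPM per kilobase of merged exons (GENCODE M21). Exact permutation tests used scipy 1.17.1, correlations 100000 permutations within groups. Scripts were tested on simulated data. A further promoter stretch is not reported here. The members, the lists, and the rule for named genes (members, Nampt, listed pathway genes that were called or that feed or drain a member's product, and the 3 most alike genes per member) were chosen with earlier results of these data known. Alternatives were RLE, hepatocyte marker scaling, DESeq2 1.42.0, other filters, all 40 libraries, single-day fits, other dispersion settings, covariates (library number series, clock score, ductal score), leaving out each library, and, added after seeing the data, leaving out libraries 29 and 37.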

Additional observations from a re-analysis of the deposited data

Results flagged for a closer look

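Of 63 combinations of a member and a group of 4 to 6 libraries, 4 held 1 library that lay apart from the rest of its group by Dixon's test at the 95% level, and about 1 in 20 is marked by chance alone. Tdo2 in HNKO library 29 of day 6 was at 8.05 log2 CPM, against 9.49 to 10.02 in the others of its group. Ido2 in WT library 33 of day 12 was at 5.90 log2 CPM, against 5.59 to 5.66 in the others. Afmid in HNKO library 32 of day 12 was at 5.38 log2 CPM, against 4.46 to 4.65 in the others, and without this library the log2 fold change of Afmid at day 12 was -0.79 (adjusted p = 0.0342) and passed the test. Acmsd in WT library 24 of day 3 was at 3.79 log2 CPM, against 4.57 to 4.80 in the others.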

How the results depend on the processing

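No paired analysis was possible because no number is shared by libraries of different groups. Among the 45 log2 fold changes (9 members at 4 days and the average), the edgeR 4 computation kept direction and call for 45, RLE and all 40 libraries for 44 each, robust estimation for 44, DESeq2 for 43, the 2 other filters for 41 each, the library number series as a covariate for 40, the clock score as a covariate for 37, libraries 29 and 37 left out for 32, hepatocyte marker scaling for 19, and the ductal score as a covariate for 5. Fits of 1 day alone kept 29 of 36. The number of members called, 1 (day 3), 3 (day 6), 0 (day 12), 0 (day 21), and 6 (the average), changed by over 1.5 times to 0 (day 3) and 1 (day 6) with hepatocyte marker scaling, 0 (day 3), 1 (day 6), and 1 (day 12) with a fit of the 2 groups of the day alone, 2 (day 3) with the library number series as a covariate, 5 (day 6) and 4 (day 12) with the clock score as a covariate, 0 (day 3), 0 (day 6), 1 (day 21), and 2 (the average) with the ductal score as a covariate, and 2 (day 3) and 0 (day 6) with libraries 29 and 37 left out. Leaving out 1 library gave 0 to 1 (day 3), 0 to 5 (day 6), and 0 to 1 (day 12). Under hepatocyte marker scaling, the member called at day 6 is Qprt, which is higher, and of the 6 called on average 2 are lower (Ido2 and Afmid) and 4 higher. With the ductal score as a covariate, each call is higher (Kmo at day 21, Tdo2 and Kmo on average). No lower call at a single day remained under either. The number of all tested genes called, 945 (day 3), 2596 (day 6), 1588 (day 12), 634 (day 21), and 7398 (the average), changed by over 1.5 times to 5710 (day 3), 9985 (day 6), and 13863 (the average) with hepatocyte marker scaling, 1428 (day 3) and 994 (day 21) with DESeq2, 331 (day 3), 1321 (day 6), 624 (day 12), and 1350 (day 21) with all 40 libraries, 420 (day 3), 1325 (day 6), and 867 (day 12) with a fit of the 2 groups of the day alone, 3883 (day 12) and 1040 (day 21) with the clock score as a covariate, 5 (day 3), 108 (day 6), 77 (day 12), 10 (day 21), and 145 (the average) with the ductal score as a covariate, and 1458 (day 3), 1225 (day 6), and 16 (day 21) with libraries 29 and 37 left out. Leaving out 1 library gave 322 to 1668 (day 3), 1126 to 3027 (day 6), 852 to 1750 (day 12), and 13 to 718 (day 21). With the ductal score as a covariate, the sign turned for Tdo2 1.05 (day 3), 1.36 (day 6), 1.16 (day 12), 1.52 (day 21), and 1.27 (the average), Ido2 0.71 (day 3), 0.81 (day 6), 0.52 (day 12), 0.75 (day 21), and 0.70 (the average), Afmid 0.20 (day 3), 0.51 (day 6), 0.34 (day 12), 0.72 (day 21), and 0.44 (the average), Kmo 0.38 (day 3), 0.52 (day 6), 0.38 (day 12), 0.76 (day 21), and 0.51 (the average), Kynu 0.55 (day 3), 0.50 (day 6), 0.42 (day 12), and 0.54 (the average), Haao 0.51 (day 3), 0.44 (day 6), 0.26 (day 12), 0.46 (day 21), and 0.42 (the average), Qprt 0.26 (day 3), 0.43 (day 6), 0.38 (day 21), and 0.37 (the average), Acmsd 0.082 (day 12) and 0.20 (day 21), and Aadat 0.47 (day 3), 0.46 (day 6), 0.42 (day 12), 0.64 (day 21), and 0.50 (the average). With hepatocyte marker scaling, the sign turned for Tdo2 0.096 (day 12) and 0.035 (day 21), Kmo 0.065 (day 3), 0.17 (day 6), 0.057 (day 12), 0.26 (day 21), and 0.14 (the average), Kynu 0.37 (day 3), 0.33 (day 6), 0.19 (day 12), and 0.31 (the average), Haao 0.049 (day 3), Qprt 0.24 (day 3), 0.46 (day 6), 0.21 (day 21), and 0.31 (the average), and Acmsd 0.17 (day 12) and 0.38 (day 21). With libraries 29 and 37 left out, the sign turned for Tdo2 0.041 (day 21), Kmo 0.17 (day 21), Kynu 0.00 (day 3) and 0.036 (the average), and Qprt 0.03 (day 6), 0.023 (day 21), and 0.0039 (the average). With RLE size factors in edgeR, the sign turned for Kmo 0.0003 (day 21). With DESeq2, the sign turned for Kmo 0.0002 (day 21). With no filter on low counts, the sign turned for Kmo 0.0011 (day 21) and Kynu 0.0044 (day 3). With a minimum of 10 counts per library, the sign turned for Kmo 0.017 (day 21), Kynu 0.013 (day 3), and Acmsd 0.022 (day 21). With a fit of the 2 groups of the day alone, the sign turned for Kmo 0.014 (day 21), Kynu 0.0007 (day 3), and Acmsd 0.015 (day 21). With the library number series as a covariate, the sign turned for Kynu 0.051 (day 3) and -0.067 (day 21). With the clock score as a covariate, the sign turned for Kynu 0.086 (day 12) and Acmsd 0.17 (day 12). Leaving out 1 library turned the sign of Tdo2 at day 21 (-0.39 to 0.041), Kmo at day 21 (-0.11 to 0.17), Kynu at day 3 (-0.10 to 0.11), Kynu at day 12 (-0.18 to 0.055), Kynu at day 21 (-0.038 to 0.22), Kynu on average (-0.071 to 0.011), Qprt at day 6 (-0.12 to 0.031), Qprt at day 21 (-0.10 to 0.023), Acmsd at day 3 (-0.093 to 0.39), Acmsd at day 6 (-0.23 to 0.18), Acmsd at day 12 (-0.30 to 0.077), Acmsd at day 21 (-0.24 to 0.33), and Acmsd on average (-0.037 to 0.13), none of them called. The cause of these changes was not tested. Small values carry no stable sign, the day 21 fits rest on 3 HNKO livers, and Acmsd has the lowest counts and a wide interval.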

Other observations

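The 2 HNKO libraries of day 21 that failed quality control were read on a scale set over all 40 libraries. Afmid was 5.23 and 4.76 log2 CPM in libraries 17 and 18, where the 3 HNKO livers used ranged from 4.12 to 5.06 and WT livers from 4.93 to 5.48. Ido2 was 6.00 and 5.23, with 4.79 to 5.56 in the HNKO livers used and 5.60 to 5.96 in WT livers. Aadat was 5.65 and 5.16, both below the WT range of 5.79 to 6.12. Ido2 of library 17 was thus above all WT livers of the day. The SD of log2 CPM was wider in HNKO than in WT livers for 9 of 9 members at days 3 and 6, for 7 at day 21, and for 2 at day 12 (Ido2 and Acmsd). Pooled over the days, it was 0.46 against 0.13 for Ido2 and 0.56 against 0.56 for Acmsd. This difference in spread was not tested.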
